A study of Arabidopsis thaliana with 6 samples.

Results

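The genes for the proteins of the cytosolic ribosome were examined in RNA-seq of 14-day-old Arabidopsis thaliana seedlings. The members are all rows of the count table outside the chloroplast and mitochondrial genomes whose annotation text opens with "40S ribosomal protein", "60S ribosomal protein" or "60S acidic ribosomal protein". This rule found 221 of 23640 features, of which 89 are annotated to the small 40S subunit, 118 to the large 60S subunit and 14 to the acidic proteins of the 60S stalk. The rule used annotation text only and no measured value.

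The seedlings were grown in vitro in the Col background, and there were 3 libraries of atrx-1 and 3 of wild type, 6 in all. The atrx-1 plants are described as a loss-of-function line of ATRX, which encodes a SNF2-family chromatin remodeler that takes part in deposition of the histone variant H3.3. No other allele or treatment is given for either genotype, and whether a library came from 1 plant or a pool is not given. Whole seedlings were used, so fewer cells of a type and less RNA per cell cannot be told apart. Total RNA was depleted of ribosomal RNA, so ribosomal protein mRNAs were read beside abundant chloroplast transcripts. Nothing in the labels says that the replicates came from separate cultures, so p-values measure the spread between these libraries.

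A cytosolic ribosome is built from the small 40S subunit, which decodes the mRNA, and the large 60S subunit, which joins amino acids and carries the stalk that recruits translation factors. In Arabidopsis nearly every protein of the ribosome is encoded by several paralogous genes, and mutants of single paralogs have pointed leaves, altered leaf polarity or embryo arrest. The transcripts are abundant and short, and growing tissue makes them in large amounts. In Arabidopsis many of their promoters carry a telo box, a short copy of the telomere repeat, and site II elements, which TCP transcription factors bind.

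The label held for most members. Of the 221, 212 fell into 78 named cytosolic families, in which 1 family had 1 listed gene, 34 had 2, 32 had 3, 8 had 4 and 3 had 5. The other members were 5 pseudogenes, 1 L18a-like gene, 1 acidic gene with no family name and 2 genes annotated as mitochondrial, RPS10 (AT3G22300) and RPS19 (AT5G47320). These 2 encode proteins of the mitochondrial ribosome and go against the label. Names are those of the table, and because 36 members share a name with another member, identifiers are given beside them. The 5 rows of ubiquitin-fused L40 and S27a genes were outside the rule.

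The L41 genes show what a family of this kind looks like. L41 is the smallest protein of the ribosome and lies at the interface of the subunits, and 3 of its 5 genes were among the members with the lowest fold changes. Their coding sequences in the RefSeq annotation of TAIR10.1 are 78 nt long, and the span given with each is that of the coding exons and the introns between them. Capitals mark bases that differ from the AT1G56045 sequence, which they do at 8, 6, 6 and 6 positions in the other genes.
RPL41E AT1G56045, chr1:20962686-20963268, plus strand: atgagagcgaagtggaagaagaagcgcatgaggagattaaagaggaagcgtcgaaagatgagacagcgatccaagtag
RPL41E AT2G40205, chr2:16792355-16792531, minus strand: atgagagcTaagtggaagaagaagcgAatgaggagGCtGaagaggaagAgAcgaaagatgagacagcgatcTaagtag
RPL41E AT3G08520, chr3:2586032-2586206, plus strand: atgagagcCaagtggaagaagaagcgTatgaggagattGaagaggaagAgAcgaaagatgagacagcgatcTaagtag
RPL41E AT3G11120, chr3:3481128-3481304, plus strand: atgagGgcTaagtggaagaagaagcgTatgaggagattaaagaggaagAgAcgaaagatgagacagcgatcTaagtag
RPL41E AT3G56020, chr3:20790826-20791043, minus strand: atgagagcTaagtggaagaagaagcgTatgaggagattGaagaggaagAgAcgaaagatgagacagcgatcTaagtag

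The upstream windows show the promoter elements. Each is the 250 nt before the outermost annotated start of the gene in TAIR10.1, written in the direction of the gene. They are those of RPL12C, RPL36AB and a gene named RPS18A, the members with the 3 smallest p-values, and of RPL4D, the cytosolic member with the highest fold change. Capitals mark the telo box AAACCCTA or its complement TAGGGTTT, and the site II elements TGGGCC and TGGGCT or their complements GGCCCA and AGCCCA. RPL12C has 2 telo boxes and 0 site II elements, RPL36AB has 1 telo box and 3 site II elements, and the windows of RPS18A and RPL4D hold neither.
RPL12C AT5G60670, chr5:24381600-24381849, minus strand: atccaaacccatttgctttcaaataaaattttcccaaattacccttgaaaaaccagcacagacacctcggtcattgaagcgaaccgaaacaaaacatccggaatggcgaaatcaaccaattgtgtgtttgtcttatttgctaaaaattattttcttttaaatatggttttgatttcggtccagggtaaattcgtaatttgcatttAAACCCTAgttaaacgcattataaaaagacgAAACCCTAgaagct
RPL36AB AT4G14320, chr4:8243924-8244173, minus strand: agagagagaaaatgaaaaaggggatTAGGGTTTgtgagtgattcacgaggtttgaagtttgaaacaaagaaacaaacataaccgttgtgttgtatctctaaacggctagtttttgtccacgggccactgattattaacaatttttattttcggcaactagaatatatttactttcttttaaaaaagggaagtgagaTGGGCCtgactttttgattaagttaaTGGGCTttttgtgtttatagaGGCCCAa
RPS18A AT1G22780, chr1:8067614-8067863, plus strand: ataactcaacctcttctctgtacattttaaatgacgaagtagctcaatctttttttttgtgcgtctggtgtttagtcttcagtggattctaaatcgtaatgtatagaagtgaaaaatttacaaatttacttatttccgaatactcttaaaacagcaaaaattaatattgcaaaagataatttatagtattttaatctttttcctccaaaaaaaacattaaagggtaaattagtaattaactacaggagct
RPL4D AT5G02870, chr5:657425-657674, plus strand: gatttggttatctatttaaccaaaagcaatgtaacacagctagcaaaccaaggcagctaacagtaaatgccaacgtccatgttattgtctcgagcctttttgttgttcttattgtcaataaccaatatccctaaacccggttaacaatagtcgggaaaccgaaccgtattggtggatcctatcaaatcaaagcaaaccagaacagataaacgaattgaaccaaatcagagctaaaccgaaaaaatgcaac

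Library totals ranged from 2887834 to 14001726 counts in atrx-1 and from 936243 to 3624088 in wild type. Wild-type library 2 was the shallowest, with 371797 nuclear counts and 11400 counts on the members, and wild-type library 1 stood apart in several measures given below. ATRX (AT1G08600), the targeted gene, had 1.24, 0.721 and 1.91 CPM in atrx-1 libraries 1, 2 and 3, against 4.82, 5.46 and 5.86 CPM in wild type (log2 fold change -2.09 ± 0.38 SE, adjusted p = 0.0536 by edgeR). CPM are counts scaled by TMM to a common library size in units of 1e6, with library size summed over the features kept by the filter. The summed CPM of 6 root markers was 55.8, 56.9 and 90.6 in atrx-1, against 112, 86.3 and 98.1 in wild type. That of 4 seed storage markers was 34.3, 38.2 and 14.4 in atrx-1, against 130, 74.3 and 34.2 in wild type, with SESA1 at 0 in atrx-1 library 3 and wild-type library 2. Summed CPM of 12 markers of dividing cells was 28.3 to 33.4 in atrx-1 and 27.4 to 39.3 in wild type, and of 5 shoot markers 14800 to 15500 in atrx-1 and 10200 to 17500 in wild type. The part of these marker levels in the results was not tested.

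The part of the nuclear counts taken by the members did not differ between genotypes beyond the spread between libraries. Their share of the nuclear counts was 3.03%, 3.12% and 2.68% in atrx-1, against 3.23%, 3.07% and 3.55% in wild type. The groups overlapped, with wild-type library 2 below atrx-1 library 2. The means were 2.94% ± 0.23 in atrx-1 and 3.28% ± 0.246 in wild type (SD, n = 3 each), a difference of -0.341 percentage points with p = 0.2 in an exact two-sided permutation test. With 3 libraries against 3 this test cannot go below 0.1. Counting error was small beside this spread, since the Wilson 95% interval ran from 2.65% to 2.71% in atrx-1 library 3 and from 3.01% to 3.12% in the shallowest library. When counts were first divided by gene length, the direction turned, with 4.46%, 4.83% and 3.92% in atrx-1 against 3.37%, 4.4% and 4.22% in wild type (difference 0.406 points, exact p = 0.4).

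Most members had somewhat lower values in atrx-1. Of the 221 members, 204 passed the filter on low counts and were tested, and 170 of these (83.3%) had a negative log2 fold change, where 48.8% of all 13819 tested features did. The median log2 fold change of the members was -0.34, a fold of 0.788, with a range from -1.15 to 0.58, while the median over all tested features was 0.01. In 79 members (38.7%) every atrx-1 library lay below every wild-type library, against 11.4% of all tested features. In 1 member every atrx-1 library lay above, RPL7D, against 12.2% of all features.

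Differences of this size did not pass the test across all features. With edgeR's quasi-likelihood test and Benjamini-Hochberg adjustment, 0 of the 204 members were called at an adjusted p of 0.05 in either direction, where 0.116% of all features were called lower (16) and 0% higher. At an unadjusted p under 0.05, 72 members (35.3%) were lower and 0 higher, against 10.9% of all features lower and 8.64% higher. DESeq2 called 17 of the 189 members to which it gave an adjusted p lower (8.99%) and 0 higher, against 2.25% of all features lower and 0.579% higher. The authors' deposited table lists 31 of 189 members as lower at the same threshold (16.4%) and 0 as higher, against 4% of its features lower and 3.06% higher, and 16 of the 17 DESeq2 calls are among these 31. The headers of that comparison do not name the libraries that entered it.

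The calls depended on single wild-type libraries. Without wild-type library 1, edgeR called 16 members lower (7.84%) and 0 higher, against 1.45% of all features lower and 1.16% higher. All 16 are among the 31 that the deposited table lists as lower. Without wild-type library 2 it called 9 lower (4.39%) and 0 higher, against 0.715% lower and 0% higher. Without wild-type library 3 it called 1 lower (0.485%) and 0 higher, against 0.781% lower and 0.0415% higher. Without atrx-1 library 1 or 2 it called 0 members and 0% of all features, and without atrx-1 library 3 it called 0 members, against 0.0069% of all features lower and 0.0138% higher. Leaving out the low-count filter gave 12 lower calls among 220 members (5.45%) and 0 higher, against 1.74% lower and 0.833% higher. RLE scaling gave 1 lower call (0.49%) and 0 higher, against 0.261% lower and 0.0145% higher.

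Fold changes followed gene length, among the members and among all other nuclear genes. The median length was 752 nt for the tested members and 1547.5 nt for the whole tested set. Across the 204 members the Spearman correlation of the log2 fold change with length was 0.439, and across 13478 other nuclear features it was 0.57. These are descriptions across genes that share the same 6 libraries. In 4 bins of equal size by length, with median lengths of 579.5, 685, 834.5 and 1041.5 nt, the median log2 fold change was -0.46, -0.39, -0.27 and -0.18. Other nuclear features of the same 4 length ranges had medians of -0.58 (n = 620), -0.42 (n = 532), -0.34 (n = 995) and -0.12 (n = 4648). In the 3 shorter ranges the members' median was less negative than that of the other genes, though in the shortest the other genes were shorter, with a median of 548 nt. In the longest range the members' median was more negative, but there the other genes were longer, with a median of 1271 nt.

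The length trend was present in single libraries. The slope of log2 CPM, relative to each gene's mean over all 6 libraries, on log2 length over other nuclear features was 0.139, 0.152 and 0.147 in atrx-1, against -0.22, -0.0625 and -0.156 in wild type, and the groups did not overlap (exact p = 0.1). Over the members the slopes were 0.0733, 0.128 and 0.161 in atrx-1, against -0.295, 0.0833 and -0.151 in wild type, and here wild-type library 2 fell among the atrx-1 libraries (exact p = 0.2). When the trend with length was estimated in each library and used as an offset in the edgeR fit, the members' median log2 fold change was -0.003, with 100 members higher (49%, against 46% of all features) and 104 lower (51%, against 54%). No member was called with this offset, in which 0% of all features were called in either direction. At an unadjusted p under 0.05, 5 members were higher (2.45%, against 3.73%) and 11 lower (5.39%, against 7.15%). The trend was fitted over all nuclear features, members included, so the offset also takes up any genotype difference shared by genes of similar length. Other nuclear features of the 4 length ranges likewise had medians of -0.06, -0.05, -0.06 and -0.05 with it. A median near 0 is therefore largely set by the offset. What in the libraries varies with gene length was not tested.

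**Figure D1:**
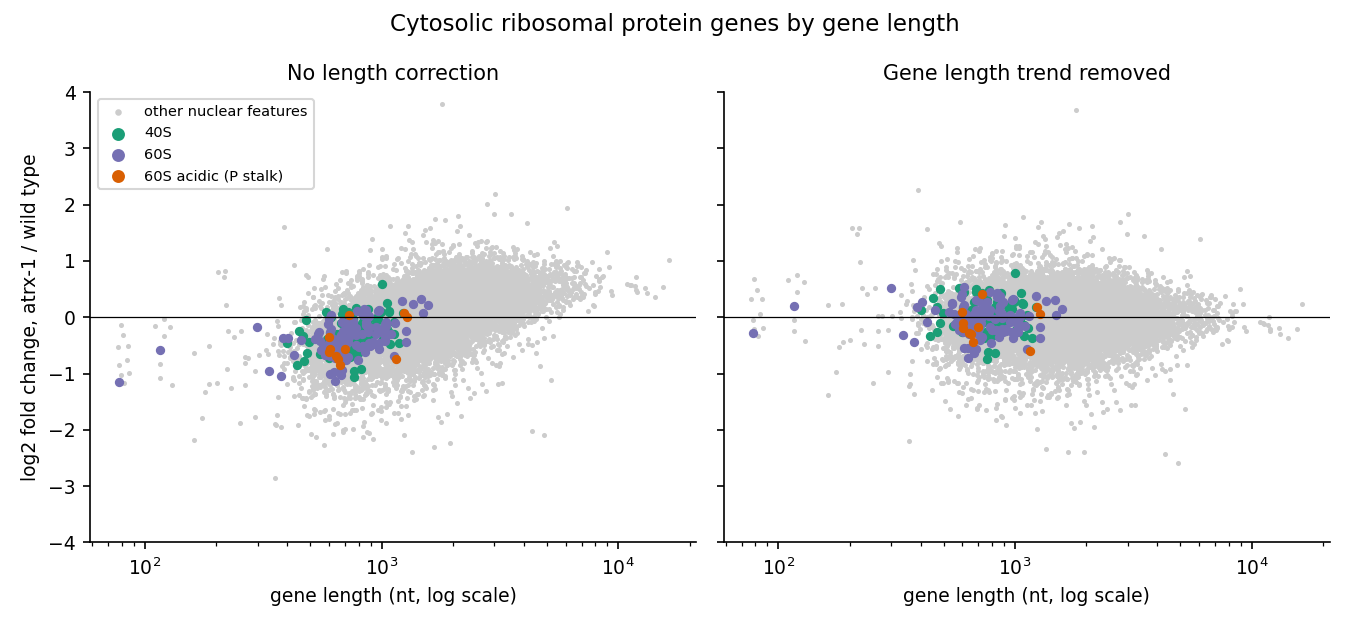
Log2 fold change of atrx-1 over wild type (y axis) against gene length in nt on a log scale (x axis) for tested nuclear features, with the members in colour by subunit. On the left most members lie below 0 in the short part of the cloud, with a median of -0.34, and on the right, with the length trend removed in each library, their median is -0.003. The trend removed was fitted over all nuclear features, members included.

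Of 81 tested genes annotated as 40S, 64 had a negative and 17 a positive log2 fold change, with a median of -0.29. With the length offset 36 were negative and 45 positive, with a median of 0.04. The 81 include mitochondrial RPS10 and RPS19, which were positive with and without the offset. The clearest differences were in the family of S18, a protein of the 40S head. The RPS18A gene AT1G22780, known as POINTED FIRST LEAF (table coordinates chromosome 1, 8067864 to 8069342), had 51.1, 55.7 and 45.9 CPM in atrx-1, against 132, 87.4 and 98.1 CPM in wild type. The groups did not overlap, and the difference amounted to -1.07 ± 0.21 SE on the log2 scale (edgeR adjusted p = 0.0568, -0.74 with the length offset). The second S18 gene, AT1G34030, had 38.6, 39.9 and 37.3 CPM in atrx-1, against 93.9, 56.8 and 70.7 CPM in wild type (log2 fold change -0.96 ± 0.21, edgeR adjusted p = 0.0611, -0.63 with the offset). The other S18 gene, AT4G09800, had 88.1, 89.9 and 91.9 CPM in atrx-1, against 123, 105 and 125 CPM in wild type, a smaller log2 fold change of -0.39 ± 0.18 (edgeR adjusted p = 0.259, -0.10 with the offset).

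Other 40S genes with DESeq2 calls were RPS11A, RPS24A, RPS29A and RPS30C. RPS11A (AT3G48930) had 64, 64.9 and 61.2 CPM in atrx-1, against 138, 87.4 and 131 CPM in wild type, with no overlap (log2 fold change -0.92 ± 0.21, edgeR adjusted p = 0.0685, DESeq2 adjusted p = 0.0061). With the length offset it was -0.63, and that of RPS29A was -0.33. RPS29A (AT4G33865), for a zinc-binding protein of the head, had 66.8, 58.9 and 60.9 CPM in atrx-1, against 107, 96.2 and 132 CPM in wild type, again with no overlap (log2 fold change -0.85 ± 0.19, edgeR adjusted p = 0.0685). RPS30C (AT5G56670) and RPS24A (AT3G04920) had log2 fold changes of -0.78 ± 0.19 and -0.71 ± 0.20, and of -0.26 and -0.37 with the offset.

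The most abundant 40S transcripts per length had log2 fold changes near or above the median of -0.29 for all tested 40S genes. Levels between genes are given as the authors' normalized signal per kb of gene length, averaged over all libraries, on which the median of the 212 cytosolic members was 252 and that of 22165 nuclear protein-coding rows was 11.3. RPS23B (AT5G02960), whose protein sits in the decoding centre, had 926, RPS16C (AT5G18380) 855 and RPS9B (AT5G15200) 812. RPS23B had 167, 179 and 146 CPM in atrx-1, against 206, 164 and 230 CPM in wild type, with overlapping groups (log2 fold change -0.29 ± 0.20). RPS16C had 130, 140 and 135 CPM in atrx-1, against 134, 117 and 129 CPM in wild type (0.09 ± 0.18), and RPS9B had 174, 170 and 165 CPM in atrx-1, against 172, 176 and 239 CPM in wild type (-0.21 ± 0.20). Without the length offset, none of the 3 differed beyond the spread between libraries. With it the log2 fold changes of RPS23B, RPS16C and RPS9B were 0.04 ± 0.20, 0.52 ± 0.20 and 0.04 ± 0.21, and none was called.

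Of 112 tested genes annotated as 60S, the L18a-like gene among them, 97 had a negative and 15 a positive log2 fold change, with a median of -0.37. With the length offset 61 were negative and 51 positive, with a median of -0.02. RPL12C (AT5G60670, chromosome 5, 24380910 to 24381593), one of the genes for the protein at the base of the stalk, had the smallest p of all members (0.000146 by edgeR). It had 27, 25.2 and 26.2 CPM in atrx-1, against 55.7, 48.1 and 46.9 CPM in wild type. Both groups were tight and far apart, and the log2 fold change was -0.95 ± 0.18 (edgeR adjusted p = 0.0568, -0.57 with the length offset). RPL36AB (AT4G14320, chromosome 4, 8241732 to 8243910), for a protein near the tRNA exit site, had 62.8, 68.2 and 60.3 CPM in atrx-1, against 152, 88.5 and 176 CPM in wild type (log2 fold change -1.14 ± 0.24, edgeR adjusted p = 0.0611, -0.72 with the offset). RPL31B (AT4G26230, chromosome 4, 13285825 to 13286791), for a protein at the mouth of the peptide exit tunnel, had 41.7, 43.7 and 40.5 CPM in atrx-1, against 114, 66.7 and 73.3 CPM in wild type (-1.03 ± 0.22, edgeR adjusted p = 0.0611, -0.63 with the offset). In these genes too the groups did not overlap. Without 1 of the libraries, the edgeR adjusted p ran from 0.0266 to 0.326 for RPL12C, from 0.0305 to 0.326 for RPL36AB and from 0.0343 to 0.326 for RPL31B. It was under 0.05 without wild-type library 1 or 2 in all 3 genes, and at least 0.107 without any atrx-1 library.

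Of the L41 genes printed above, 3 were called lower by DESeq2. AT3G08520, whose length in the table is 78 nt, the coding part alone, had the highest signal per kb of all members, 4060. It had 58.9, 53.8 and 43.7 CPM in atrx-1, against 169, 60.1 and 114 CPM in wild type (log2 fold change -1.15 ± 0.30, edgeR adjusted p = 0.0812). Wild-type library 2 lay close to the atrx-1 libraries. With the length offset the log2 fold change was -0.28, and both this value and the signal per kb rest on the 78 nt. AT3G56020 had 41.1, 35.1 and 26.2 CPM in atrx-1, against 88.2, 50.3 and 72 CPM in wild type (-1.05 ± 0.24, -0.44 with the offset). AT1G56045 had 72.7, 75.4 and 69.2 CPM in atrx-1, against 143, 80.9 and 191 CPM in wild type (-0.95 ± 0.26, -0.32 with the offset). The remaining L41 genes, AT2G40205 and AT3G11120, had log2 fold changes of -0.59 ± 0.24 and -0.18 ± 0.30, and of 0.20 and 0.52 with the offset.

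Other 60S genes with large differences were RPL23C, RPL35C and ATL5. RPL23C (AT3G04400), for a protein of the face that meets the 40S subunit, was among the highest per length (1200 signal per kb) and had 178, 186 and 191 CPM in atrx-1, against 345, 240 and 351 CPM in wild type (log2 fold change -0.76 ± 0.21, edgeR adjusted p = 0.0898, -0.45 with the offset). RPL35C (AT3G55170), another gene of the exit tunnel mouth, had 11.5, 11.5 and 6.06 CPM in atrx-1, against 29.2, 9.83 and 17.3 CPM in wild type (-1.02 ± 0.32, edgeR adjusted p = 0.12, -0.55 with the offset), with wild-type library 2 below 2 atrx-1 libraries. ATL5 (AT3G25520), an L5 gene whose protein binds 5S rRNA, had 166, 181 and 155 CPM in atrx-1, against 249, 294 and 267 CPM in wild type (-0.69 ± 0.19, edgeR adjusted p = 0.0906). At 1124 nt it is longer than most members, and with the length offset its log2 fold change was -0.57. DESeq2 also called RPL32B, RPL34A and RPL35B, with edgeR log2 fold changes of -0.68 ± 0.18, -0.77 ± 0.19 and -0.98 ± 0.24, and -0.27, -0.41 and -0.54 with the offset.

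**Figure D2:**
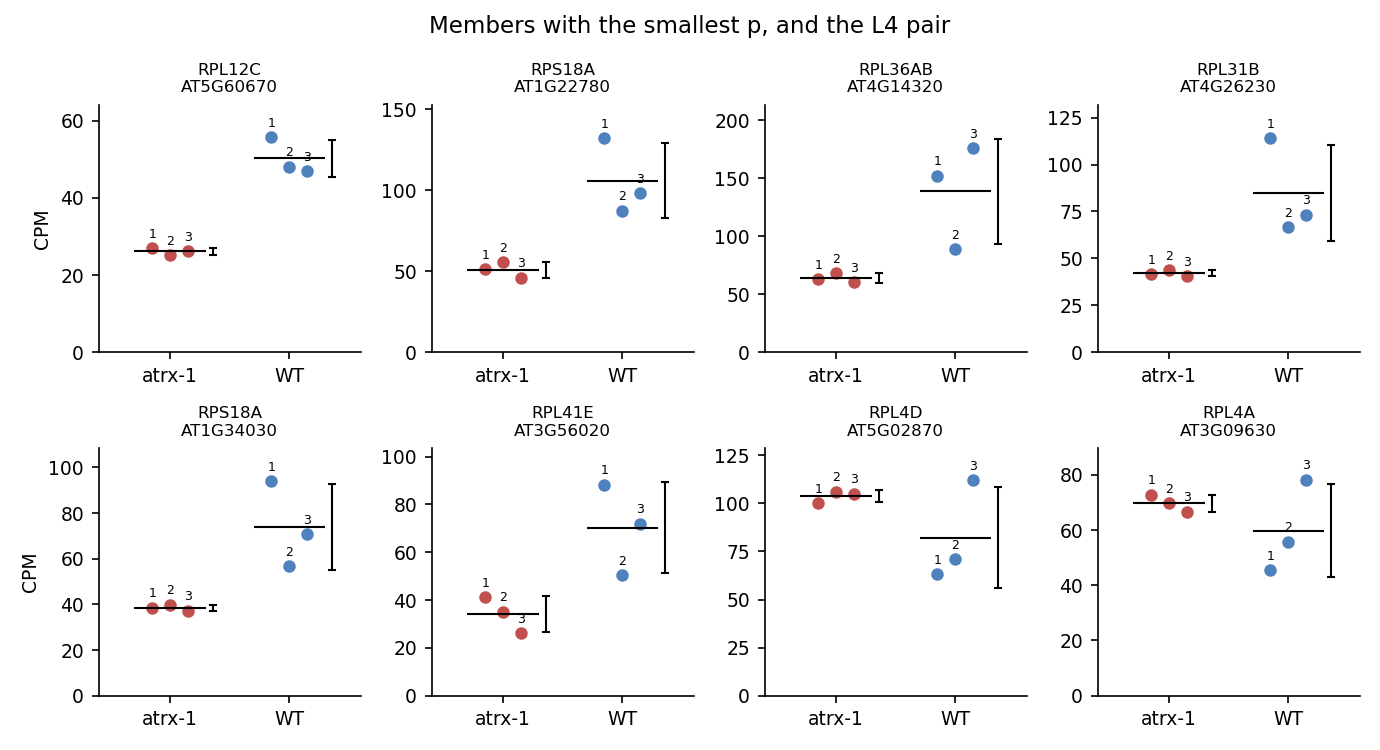
CPM on linear axes from 0 in the 3 atrx-1 and 3 wild-type libraries (points, numbered by replicate) for 6 members with the smallest p and for both L4 genes, with group means (lines) and SD (bars). In the 6 genes the atrx-1 libraries all lie below the wild-type libraries, as in RPL12C with 25.2 to 27 CPM against 46.9 to 55.7 CPM, while the wild-type libraries spread more widely.

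Positive log2 fold changes were rarer. L4 lines part of the peptide exit tunnel, and both of its genes had positive values. RPL4D (AT5G02870) had 100, 106 and 105 CPM in atrx-1, against 63.2, 71 and 112 CPM in wild type, and wild-type library 3 was the highest of all (log2 fold change 0.33 ± 0.23, edgeR adjusted p = 0.461). RPL4A (AT3G09630) had 72.8, 69.7 and 66.7 CPM in atrx-1, against 45.4, 55.7 and 78.2 CPM in wild type (0.22 ± 0.22). Without wild-type library 1 these values were 0.15 for RPL4D and 0.02 for RPL4A, and without wild-type library 3 they were 0.63 and 0.49. RPL7D (AT3G13580) had 37.3, 38.2 and 41.1 CPM in atrx-1, against 30.4, 31.7 and 33.2 CPM in wild type, without overlap but with a small difference (0.29 ± 0.17, edgeR adjusted p = 0.387). The largest positive log2 fold change was that of the mitochondrial RPS10 gene, with 3.84, 6.97 and 4.15 CPM in atrx-1, against 2.71, 4.37 and 3.26 CPM in wild type (0.58 ± 0.38). Mitochondrial RPS19 had 0.26 ± 0.23 and ARP2 (AT1G61580), the weakly expressed L3 gene, 0.24 ± 0.29. None of these passed the test.

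The stalk genes had the lowest median of the 3 groups. P0 is the long anchor protein, and P1, P2 and the plant-specific P3 are the short acidic proteins bound to it. Of 11 tested stalk genes, 9 had a negative and 2 a positive log2 fold change, with a median of -0.57. With the length offset 7 were negative and 4 positive, with a median of -0.18, and these genes were the shortest group, with a median of 666 nt. RPP0B (AT3G09200, 601 signal per kb) had 208, 215 and 183 CPM in atrx-1, against 149, 222 and 237 CPM in wild type, a log2 fold change that rounds to 0 (SE 0.22). RPP2A (AT2G27720, 584 signal per kb) had 80.2, 78.3 and 60.3 CPM in atrx-1, against 112, 88.5 and 134 CPM in wild type (-0.62 ± 0.21, edgeR adjusted p = 0.142, -0.20 with the offset). RPP1A (AT1G01100, 437 signal per kb) had 65.6, 65.8 and 50.1 CPM in atrx-1, against 91.5, 57.9 and 80.1 CPM in wild type (-0.36 ± 0.21, 0.09 with the offset). RPP2D (AT3G44590) had 8.24, 9.13 and 8.93 CPM in atrx-1, against 18.4, 12 and 14.7 CPM in wild type (-0.85 ± 0.22, edgeR adjusted p = 0.0817, -0.43 with the offset). The minor P0 genes, RPP0A (AT2G40010, at most 5.12 CPM) and RPP0C (AT3G11250, at most 15.9 CPM), had -0.73 ± 0.34 and 0.08 ± 0.22.

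The balance between parts of the ribosome did not differ beyond the spread between libraries. The ratio of summed 40S to summed 60S counts was 0.641, 0.649 and 0.663 in atrx-1, against 0.592, 0.658 and 0.651 in wild type (means 0.651 ± 0.0112 and 0.634 ± 0.0359, SD, n = 3 each, exact permutation p = 0.7). Wild-type library 1 had the lowest ratio, and without it the difference changed from 0.0173 to -0.00329. The ratio of stalk counts to other 60S counts was 0.0855, 0.0833 and 0.08 in atrx-1, against 0.0848, 0.0774 and 0.08 in wild type (exact permutation p = 0.5).

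Summing paralogs gave 1 value for each protein of the ribosome. Of 78 families, 68 had a negative and 10 a positive log2 fold change, with a median of -0.34 and a range from -0.96 to 0.28. No family passed edgeR's adjusted threshold over all features, in a fit that called 16 features, and 27 families (34.6%) had an unadjusted p under 0.05, all 27 lower. Of single features, 10.9% were lower and 8.64% higher at that threshold. The families were not fitted with the length offset. The lowest were L36a (-0.96 ± 0.26, edgeR adjusted p = 0.0896), L41 (-0.90 ± 0.27), S18 (-0.74 ± 0.20, edgeR adjusted p = 0.0891), S29 (-0.73 ± 0.21), S11 (-0.70 ± 0.20) and L23 (-0.70 ± 0.21). The highest were L4 (0.28 ± 0.23), L3 (0.07 ± 0.19), S17 (0.06 ± 0.20) and L8 (0.06 ± 0.18). The families at both ends, L36a and L41 below and L4 and L3 above, belong to the 60S subunit, and the 40S families lay between S18 and S17. These families also differ in gene length. The L4 and L3 genes are 1354 to 1579 nt long, against a median of 752 nt for the tested members. AT3G23390 of L36a is listed at 541 nt and AT3G08520 of L41 at 78 nt.

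**Figure D3:**
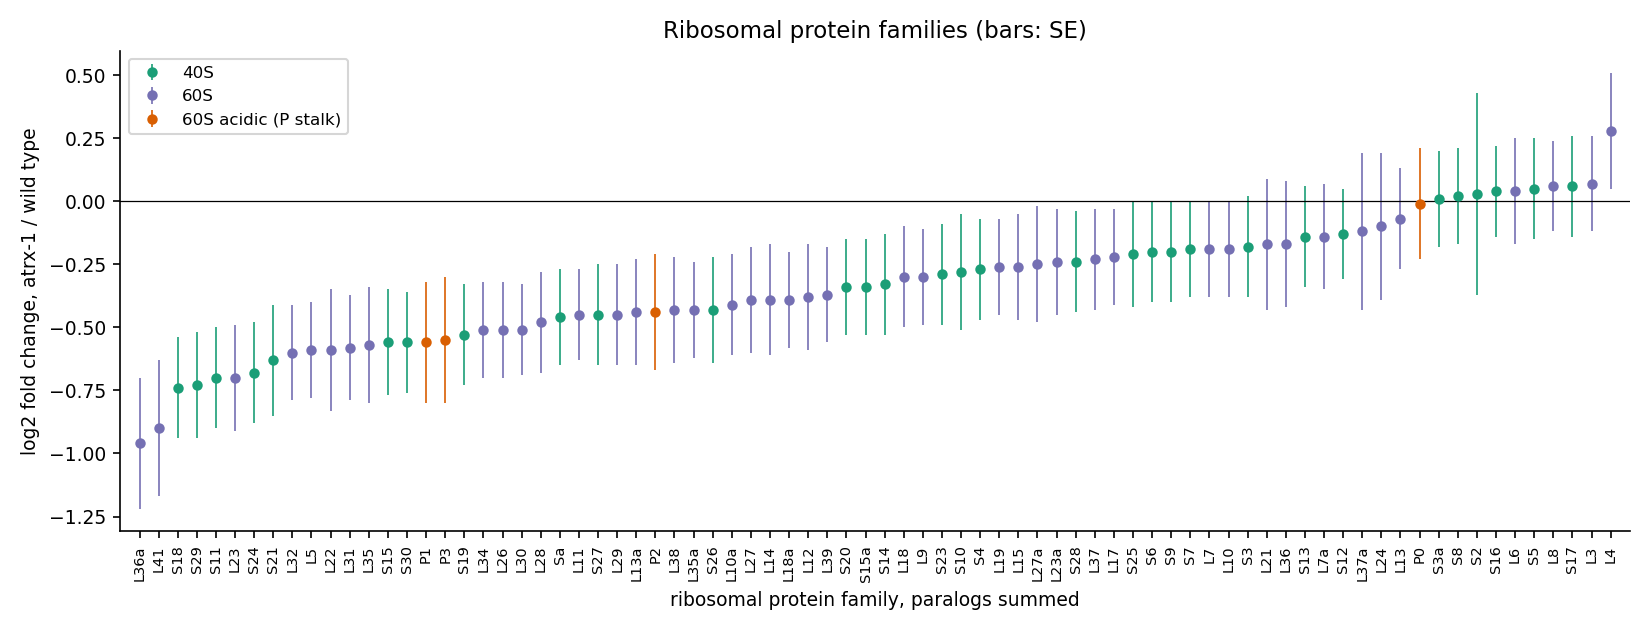
Log2 fold change of atrx-1 over wild type (y axis, points, with SE as bars) for the 78 cytosolic families after summing paralogs, ordered from lowest to highest and coloured by subunit. Of these, 68 lie below 0, from L36a at -0.96, and L4 is highest at 0.28.

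Each paralog was expressed as a share of its family's counts per length in each library, 211 shares in all. In 44 of them (20.9%) the genotypes did not overlap, a share near the 23.6% of all tested features whose CPM did not overlap in either direction, so the count is no result about paralogs. The shares that follow were chosen among the 44 and are given as a description. With 3 libraries each, a single share cannot pass 0.05, the shares of a family are tied to each other, and the median absolute difference was 2.27 percentage points. RPL31B made 27.2%, 28.6% and 31.9% of the L31 family in atrx-1, against 43.6%, 37.5% and 37.9% in wild type. RPL12C made 20.5%, 19.5% and 24.9% of the L12 family in atrx-1, against 30.2%, 36.3% and 28.9% in wild type, while RPL12A and RPL12B had log2 fold changes of -0.23 ± 0.20 and -0.18 ± 0.24. In the S18 family, AT4G09800 made 48.5%, 47.4% and 51.4% in atrx-1, against 34.2%, 41.1% and 41.5% in wild type. In the S3 family, RPS3B made 46%, 50.6% and 46.2% in atrx-1, against 35.8%, 37.1% and 43.4% in wild type.

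In the L10 family, RPL10A made 61.8%, 57.7% and 57.8% in atrx-1, against 51.6%, 48.3% and 53% in wild type, and RPL10C took most of the rest. In the S14 family, RPS14A made 40.9%, 45.9% and 43.4% in atrx-1, against 52.7%, 56.1% and 47.2% in wild type. In the S25 family, RPS25E made 71.6%, 72.4% and 70.2% in atrx-1, against 77.5%, 76.2% and 78.1% in wild type. Some families leaned on 1 gene in every library. In 8 families a single paralog had a mean share over 90%, among them RPS23B (100%), RPS8A (99.9%), RPSAA (98.6%) and ARP1 (96.4%), and 7 paralogs were under 1%. Paralogs share sequence, since the longest identical coding run between a member and a paralog had a median of 35 nt and reached 458 nt for the RPL9B pair, and 48 members shared a run of at least 50 nt. No source used here says how reads matching both copies were counted, so shares of such pairs are uncertain.

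**Figure D4:**
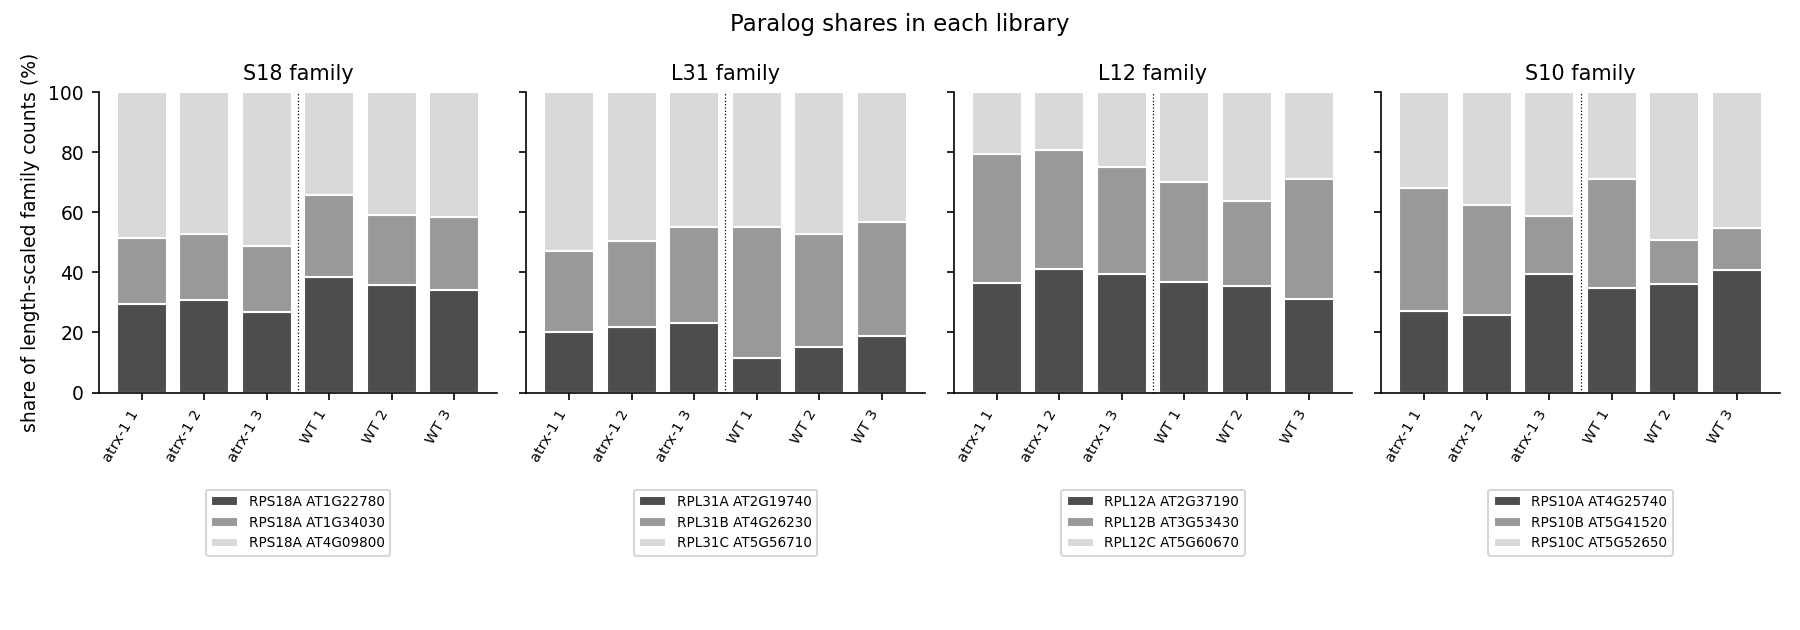
Share of each paralog in its family's counts per length (y axis, percent, stacked bars) in each atrx-1 and wild-type library for the S18, L31, L12 and S10 families. AT4G09800 holds 47.4% to 51.4% of S18 in atrx-1 against 34.2% to 41.5% in wild type, while the RPS10B share of S10 varies within both genotypes.

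A few members varied between libraries of the same genotype far more than the others. Among the 171 tested members with a wild-type mean of at least 20 CPM, the within-group SD of log2 CPM had a median of 0.226, and the 6 highest reached 0.691 to 0.94. These 6 were chosen after their values were seen. RPS10B (AT5G41520) had 58.4, 42.5 and 20.7 CPM in atrx-1, against 69.8, 17.5 and 18.2 CPM in wild type. RPL36B (AT3G53740) had 48.1, 38.2 and 18.8 CPM in atrx-1, against 64.7, 16.4 and 16.3 CPM in wild type. RPS2C (AT2G41840), for a protein at the mRNA entry channel, had 75.8, 61 and 41.8 CPM in atrx-1, against 104, 22.9 and 35.8 CPM in wild type. The others were the second RPL36AB gene (AT3G23390), RPP2B (AT2G27710) and RPL21A (AT1G09590).

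The 6 genes ordered the libraries in much the same way. Wild-type library 1 was highest in 6 of 6, wild-type library 2 lowest in 5 and wild-type library 3 in 1, and atrx-1 library 1 was above atrx-1 library 3 in 6 of 6. The highest library exceeded the lowest by 3.82-fold to 5.47-fold, while the edgeR log2 fold changes between genotypes ran from -0.3 to 0.15, none past the threshold. For RPS10B, RPL36B and RPS2C the authors' deposited table gives positive log2 fold changes of 0.8, 0.81 and 0.74 (adjusted p = 0.0648, 0.0512 and 0.0564), whereas edgeR gave 0.15 ± 0.46, 0.05 ± 0.46 and 0.08 ± 0.41. The deposited values of several other members lay nearer the edgeR fit without wild-type library 1. RPL24B had 0.46 as deposited, 0.05 with all 6 libraries and 0.54 without that library, and RPP0B had -0.18, -0.0022 and -0.18. RPP2A, at -0.58, -0.62 and -0.63, did not lie nearer that fit. The reason was not tested. The RPS10B share of its family was 40.8%, 36.5% and 19.5% in atrx-1, against 36.3%, 14.7% and 13.9% in wild type. What differed between these libraries is not given in the labels.

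**Figure D5:**
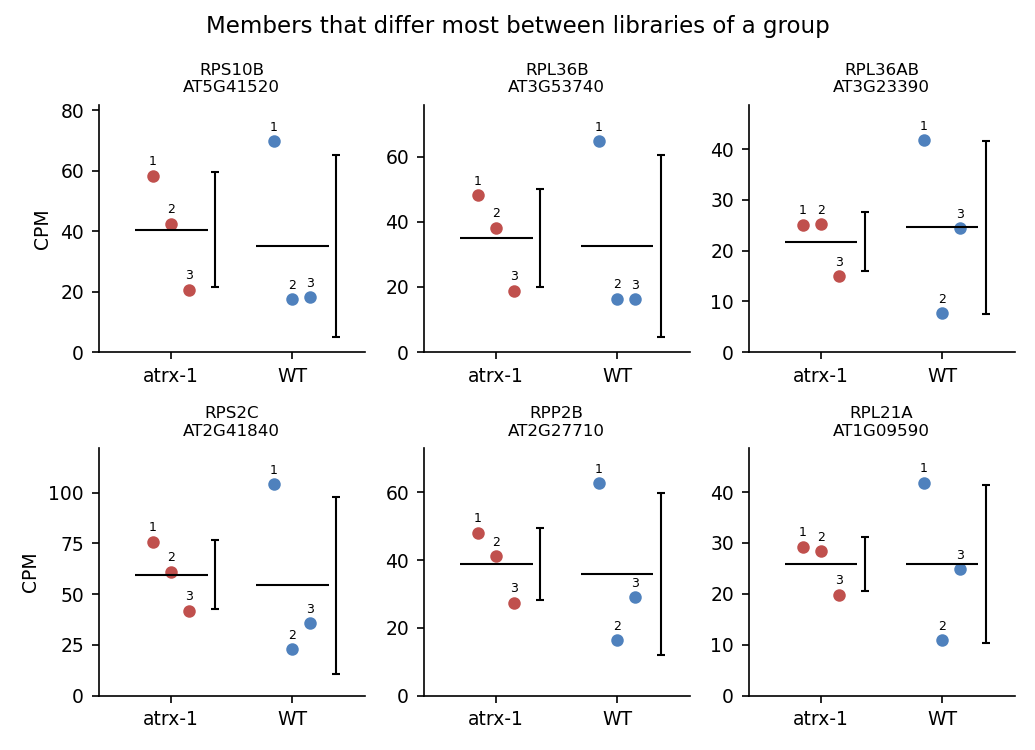
CPM on linear axes from 0 in the 3 atrx-1 and 3 wild-type libraries (points, numbered by replicate) for the 6 members with the largest spread within a genotype, with group means (lines) and SD (bars). In all 6 wild-type library 1 is the highest, as in RPS10B with 69.8 CPM, and the genotypes overlap.

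Genes known from developmental mutants of Arabidopsis were a list of 23, all tested. Of these, 8 had a positive and 15 a negative log2 fold change, with a median of -0.20 (0.04 with the length offset), beside -0.34 for all members. RPS18A (AT1G22780), described above, was the lowest. The PIGGYBACK genes, whose mutants enhance leaf polarity defects, had -0.56 ± 0.19 (RPL10AB, AT2G27530), -0.29 ± 0.19 (RPL9B, AT1G33140) and -0.69 ± 0.19 (ATL5). RPL10AB had 104, 110 and 98.9 CPM in atrx-1, against 138, 149 and 172 CPM in wild type, without overlap (edgeR adjusted p = 0.135). RPL5B (AT5G39740), the other L5 gene, had 131, 139 and 122 CPM in atrx-1, against 153, 199 and 181 CPM in wild type (-0.43 ± 0.19).

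Of the others on this list, RPS13B (AT4G00100), known as POINTED FIRST LEAF 2, had 57.8, 57.4 and 47.8 CPM in atrx-1, against 53.3, 43.7 and 59.3 CPM in wild type (log2 fold change 0.05 ± 0.19). RPL24B (AT3G53020), known as SHORT VALVE1 and needed for reinitiation of translation after upstream reading frames, had 45.9, 47.3 and 35.4 CPM in atrx-1, against 63.5, 19.7 and 35.2 CPM in wild type (0.05 ± 0.30). RPS6A (AT4G31700) and RPS6B (AT5G10360), whose protein is phosphorylated downstream of the TOR kinase, had -0.20 ± 0.22 and -0.18 ± 0.20. The S5 genes AT3G11940, whose promoter is used to drive genes in dividing cells, and AT2G37270 had 0.09 ± 0.20 and -0.05 ± 0.21. RPL10A (AT1G14320) had 0.03 ± 0.19 and RPL10C (AT1G66580) -0.46 ± 0.18, while RPL10B (AT1G26910), with at most 5.72 CPM, had -0.20 ± 0.33. ARP1 (AT1G43170), the main L3 gene, had 239, 265 and 227 CPM in atrx-1, against 203, 238 and 255 CPM in wild type (0.07 ± 0.19). The remaining genes were RPL28A (-0.45 ± 0.22), RPS21B (-0.55 ± 0.21), RPL27AC (-0.27 ± 0.34), RPL23AA (-0.29 ± 0.22) and RPL23AB (-0.09 ± 0.19).

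Of the ubiquitin-fused genes outside the rule, those of L40 had lower fold changes than those of S27a. The L40 gene RPL40B (AT2G36170) had 29, 30.8 and 33.8 CPM in atrx-1, against 61.7, 56.8 and 63.5 CPM in wild type (log2 fold change -0.97 ± 0.18, edgeR adjusted p = 0.0536), and its copy AT3G52590 had -0.73 ± 0.19. Both S27a genes tested, RPS27AC and RPS27AB, had -0.02, with SE of 0.19 and 0.20. These 4 genes are 677 to 704 nt long, and with the length offset RPL40B and its copy had -0.60 and -0.37, and RPS27AC and RPS27AB 0.32 and 0.35. The difference between them was not tested.

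Genes that work with the ribosome were taken from 3 lists. Of 15 translation factor genes, all tested, 13 had a positive and 2 a negative log2 fold change, with a median of 0.35 (0.25 with the length offset, 12 positive). None was called by edgeR or DESeq2, while 7 had an unadjusted p under 0.05, all higher, against 8.64% of all features higher. The 7 were AT1G07920, AT1G07930 and AT1G07940, all annotated as elongation factor 1-alpha 2, LOS1 (AT1G56070), and the poly(A)-binding protein genes PAB2, PAB4 and PAB8. How reads shared by such paralogs were counted is not stated, so the 7 may not be independent. PAB4 (AT2G23350), a poly(A)-binding protein, had 54.9, 62.5 and 44 CPM in atrx-1, against 31.9, 33.9 and 35.2 CPM in wild type (0.68 ± 0.20, edgeR adjusted p = 0.0962, 0.43 with the offset). The elongation factor 1-alpha gene AT1G07920 had 89.5, 90.1 and 84.8 CPM in atrx-1, against 54.8, 62.3 and 60.9 CPM in wild type (0.58 ± 0.18, edgeR adjusted p = 0.115). These genes have a median length of 1715 nt. Of 26 ribosome biogenesis genes, 21 were tested, with 14 positive and 7 negative and a median of 0.16. With the offset 8 were positive and 13 negative, with a median of -0.05. At an unadjusted p under 0.05, 2 were higher, a share near the 8.64% of all features. NRPA1 (AT3G57660), the largest subunit of RNA polymerase I, had 15, 13.5 and 12.8 CPM in atrx-1, against 6.92, 12 and 8.47 CPM in wild type (0.72 ± 0.24, edgeR adjusted p = 0.132, 0.22 with the offset). The 11 genes of the TOR pathway and of promoter-binding factors had 7 positive and 4 negative values and a median of 0.15 (0.01 with the offset, 6 positive and 5 negative). At an unadjusted p under 0.05, 2 of the 11 were higher, against 8.64% of all features. TOR itself (AT1G50030), which is 7966.5 nt long, had 0.46 ± 0.17 (edgeR adjusted p = 0.172), and with the offset its sign turned, to -0.15.

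Nuclear genes for plastid-type ribosomal proteins, the counterpart set for the chloroplast ribosome, had 11 positive and 27 negative values among 38 tested of 42. Their median was -0.20 (0.04 with the offset) at a median length of 881.5 nt. DESeq2 called 1 of them lower, against 2.25% of all features, and edgeR called 0, against 0.116% of all features lower. Their share of nuclear counts was 0.806%, 0.842% and 0.716% in atrx-1, against 0.617%, 0.945% and 0.873% in wild type. The ratio of cytosolic members' counts to theirs was 3.76, 3.7 and 3.75 in atrx-1, against 5.24, 3.24 and 4.07 in wild type. The means of 3.74 ± 0.0293 in atrx-1 and 4.18 ± 1 in wild type (SD, n = 3 each) did not differ beyond the spread (exact permutation p = 0.7). The ratio varied little among atrx-1 libraries and widely among wild-type libraries, with library 1 highest and library 2 lowest.

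The promoter elements were common among the members, and the median fold changes of members with and without them lay between -0.489 and -0.302. In the 250 nt before the outermost annotated start, the telo box AAACCCTA was found on either strand in 44 of 212 cytosolic members (20.8%), against 1231 of 27443 nuclear protein-coding genes (4.5%). A site II element, TGGGCC or TGGGCT on either strand, was found in 146 members (68.9%), against 5264 genes (19.2%), and both elements in 34 members (16.0%), against 374 genes (1.4%). The elements are counted separately where they overlap, and a match is a match of letters only. Among tested members the median log2 fold change was -0.302 with both elements (n = 30), -0.308 with site II alone (n = 110), -0.489 with the telo box alone (n = 8) and -0.361 with neither (n = 53). With the length offset these medians were 0.053, 0.012, -0.209 and -0.062. Of the genes whose windows are printed above, RPS18A has neither element and RPL36AB has both. They were picked for their small p-values, so their similar fold changes say nothing about the elements.

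The members that did not pass the filter were few and weakly expressed. They numbered 17, of which 5 were pseudogenes and 11 were cytosolic genes, among them RPS2A, RPS8B, RPS15C, RPS15E, RPS23A, RPSAB, RPP2C and RPP2E. RPS15E (AT5G43640) had 0 counts in all 6 libraries. RPS2A (AT1G58380), the most counted of them, had 61, 8 and 2 counts in atrx-1, against 22, 0 and 8 counts in wild type. Each of the 78 families had at least 1 tested gene.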

How the data were processed

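RNA-seq of rRNA-depleted total RNA from 6 seedling libraries, 3 atrx-1 and 3 wild type, was analysed from 1 deposited table of 23640 features. Per the submitters' processing notes, the build was TAIR10 and the tools included TopHat2 2.0.14, Bowtie2 2.1.0, HTSeq 0.6.1, and DESeq2 1.6.3 beside CASAVA 1.8.2 and DESeq. No source used here states their roles, the strand setting or how multi-mapping reads were treated. Per the file headers, the authors deposited raw read counts per gene, a normalized signal (counts over a size factor), that signal per kb, and, for their own comparison, p-values (raw and adjusted) with a log2 fold change. Gene length is the ratio of both signals. The authors' fold changes were used only where named as such.

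Counts were tested with edgeR 4.0.16 (R 4.3.3, TMM, filterByExpr with a minimum count of 10 and total of 15, glmQLFit, glmQLFTest, genotype as the only term), adjusted by Benjamini-Hochberg over 13819 features at 0.05. The filter removed 9821 features, and the biological coefficient of variation was 19.3%. DESeq2 1.42.0 was an alternative. The length offset is a loess curve (span 0.3) of each library's log2 CPM deviation on log2 length over nuclear features. The pseudocount for log2 CPM was 1. The scripts were tested on simulated data. Libraries were compared by exact permutation tests, and Wilson 95% intervals cover counting error only.

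The members and lists were chosen with earlier results of these data known. The genes named are the 6 with the largest, the 6 with the smallest log2 fold change and the 6 with the smallest p, the 3 highest per kb in each of 40S, 60S and stalk, the developmental list, and members past the threshold or of smallest p in the other lists. The DESeq2 calls, RPP0A, RPP0C, AT1G07920, paralogs of named genes, RPP2D, the ubiquitin-fused genes and the most variable members were named after their values were seen. Coordinates of named genes are those of the table. Sequences and promoter windows are from RefSeq TAIR10.1, matched by locus tag. Between 41.7% and 45.9% of matched genes per chromosome have the same start or end in both. The labels do not say that replicate numbers pair the samples, and a fit with a replicate block is given below.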

Additional observations from a re-analysis of the deposited data

How the results depend on the processing

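The number of features called, 16, was 210 with DESeq2, 38 with RLE scaling, 592 without the low-count filter, 0 with the length offset and 0 to 378 with 1 library left out. With the offset and 1 library left out, an alternative added after the data were seen, it was 0 to 37. The number of members called, 0, was 17 with DESeq2, 1 with RLE, 12 without the filter, and 0 to 16 with 1 library left out. The members' median log2 fold change, -0.34, was -0.003 with the length offset and -0.42 to -0.28 with 1 library left out, and with both changes it was -0.01, -0.05 and 0.04 without atrx-1 libraries 1, 2 and 3 and -0.09, -0.01 and 0.08 without wild-type libraries 1, 2 and 3. The share of nuclear counts turned to 0.406 points per kb and was -0.45 to -0.207 with 1 library left out. The 40S to 60S difference was -0.00329 to 0.0295 with 1 library left out.

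The labels do not say whether equal replicate numbers pair the samples, and correlations from 3 libraries each cannot decide it. The correlations of same-numbered deviations over all tested features were 0.0644, 0.0571 and -0.0791, and over the members 0.527, 0.0258 and 0.21. Between libraries of different numbers they ran from -0.132 to 0.0879 over all tested features and from -0.424 to 0.302 over the members. With the replicate block, 34 features and 0 members were called, and the median was -0.31. With block and length offset these were 1, 0 and 0.003. The length offset turned the sign of the log2 fold change in RPS23B (0.04, and 0.04 with the block), RPS9B (0.04 and 0.06), RPP0B (0.05 and 0.08) and RPP1A (0.09 and 0.08). It did so too in RPS5A (0.15 and 0.17), RPL27AC (0.1 and 0.14), RPL10B (0.07 and 0.02) and RPL23AB (0.25 and 0.25). Several genes of the other lists also turned, among them, without the block, TOR (-0.15), NRPA2 (-0.15), BOP1 (-0.1), EIF4A1 (-0.02) and MCM2 (-0.14). So did the ubiquitin-fused RPS27AC (0.32) and RPS27AB (0.35). RPP0B was also 0.0081 with DESeq2, 0.04 without the filter, 0.00082 with a stricter filter and 0.02 with the block.

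With 1 library left out, the sign turned and the log2 fold change ran from -0.18 to 0.14 in RPP0B, -0.07 to 0.14 in RPS13B, -0.22 to 0.54 in RPL24B, -0.04 to 0.24 in RPS5B, -0.21 to 0.19 in RPS5A, -0.57 to 0.38 in RPL27AC, -0.09 to 0.11 in RPL10A, -0.43 to 0.07 in RPL10B, -0.01 to 0.15 in ARP1 and -0.2 to 0.02 in RPL23AB. The causes of these changes were not tested. Summing paralogs, nuclear features alone or a stricter filter left 0 members called. The shallowest library, with 371797 nuclear counts, limits what can be seen of weak paralogs.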
